A study of Mus musculus with 2 samples.

Results

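Genes of the interferon response and of antigen presentation were examined in dorsal striatum of mice with a history of long-access sessions in which they delivered cocaine to themselves intravenously. They were chosen by symbol: the guanylate-binding proteins (Gbp), the Ifit, Ifitm, Ifi and Oas families, Mx, Isg15 and related effectors, Stat, Irf and Irf2bp transcription factor genes, B2m, every H2- symbol, the peptide transporter and loading genes, the immunoproteasome subunits, and the RNA sensors Ddx58 and Ifih1. Irf5 and Irf8 were left out although their symbols match. The choice was made with earlier results of these data known. The choice gave 112 of 32531 genes in the deposited counts, of which 28 had no read in either library, 53 had between 1 and 49 counts over both and 31 had at least 50. Symbols, not function, decided membership, so a few members are not interferon genes: H2-Ke6 lies in the H2 region but encodes a dehydrogenase, and the Irf2bp genes encode partners of the repressor Irf2.

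Both groups were Drd1-TRAP mice of the CP73 line, in which a bacterial artificial chromosome drives an EGFP-tagged ribosomal protein, Rpl10a, in cells with dopamine receptor Drd1. The strain was FVB/N and Swiss Webster crossed to C57BL/6 for at least 9 generations. One group escalated its cocaine intake and the other did not, and each is represented by 1 library of total RNA from the dissected tissue (the input, not the ribosome-bound fraction). The sources used here give neither number nor age nor sex of the animals behind each library, and no drug-naive group is part of the data analysed here. All 10 markers of striatal projection neurons had at least 50 counts. Ppp1r1b had the most, 18584 unscaled counts in the escalating library against 7710 in the nonescalating one. All 10 together had 55011 and 39134. Scaled as described below, they summed to 5084 and 4730 counts per megaread, a ratio of 1.07. Of the 10, 1 was called higher and 1 lower.

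Interferons bind receptors that signal through Jak kinases to transcription factors of the Stat family. Complexes with Irf9 bind interferon-stimulated response elements, while Stat dimers bind gamma-activated sites, and the genes they switch on block viral replication or raise antigen presentation. Presentation on MHC class I needs a heavy chain, the light chain beta-2-microglobulin (B2m), peptides cut by the proteasome or its interferon-inducible form, the Tap transporter and the loading factor tapasin. In brain, MHC class I is known to be expressed strongly by microglia and endothelium and at lower level by neurons.

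The 250 bases before the transcription start of 7 members show elements known from interferon-induced genes, in members with and without a match. Capitals mark matches to the response element, searched on both strands as TTTC, any 2 bases and TTTC again (GAAA, any 2 bases and GAAA on the reverse), and to the gamma-activated site, searched as TTCNNNGAA, which reads alike on both strands. Sequences are from RefSeq on build GRCm38.p6, 5′ to 3′ on the strand of the gene. B2m lies at chr2:122147437-122147686 (plus strand), H2-D1 at chr17:35262844-35263093 (plus), Gbp2 at chr3:142620413-142620662 (plus), Gbp7 at chr3:142530086-142530335 (plus), Ifit3 at chr19:34583279-34583528 (plus), Rsad2 at chr12:26456453-26456702 (minus) and Oasl2 at chr5:114896684-114896933 (plus).
B2m: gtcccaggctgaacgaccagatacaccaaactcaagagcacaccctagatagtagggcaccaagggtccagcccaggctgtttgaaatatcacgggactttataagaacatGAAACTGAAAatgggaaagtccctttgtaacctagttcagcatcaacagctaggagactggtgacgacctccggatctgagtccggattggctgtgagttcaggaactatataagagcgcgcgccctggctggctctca
H2-D1: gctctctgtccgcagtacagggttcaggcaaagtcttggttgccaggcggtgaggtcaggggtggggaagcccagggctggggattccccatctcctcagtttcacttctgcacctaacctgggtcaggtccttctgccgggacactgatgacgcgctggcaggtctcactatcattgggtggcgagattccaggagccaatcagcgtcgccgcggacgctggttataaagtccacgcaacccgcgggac
Gbp2: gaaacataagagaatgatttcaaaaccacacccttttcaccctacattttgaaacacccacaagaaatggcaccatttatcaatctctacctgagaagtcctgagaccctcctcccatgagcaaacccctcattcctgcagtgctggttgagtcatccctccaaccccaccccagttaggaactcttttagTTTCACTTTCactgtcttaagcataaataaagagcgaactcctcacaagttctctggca
Gbp7: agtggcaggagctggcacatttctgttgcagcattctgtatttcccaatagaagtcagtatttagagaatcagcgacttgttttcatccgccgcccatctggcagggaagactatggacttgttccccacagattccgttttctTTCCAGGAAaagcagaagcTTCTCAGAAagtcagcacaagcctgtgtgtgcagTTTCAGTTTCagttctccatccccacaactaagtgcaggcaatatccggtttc
Ifit3: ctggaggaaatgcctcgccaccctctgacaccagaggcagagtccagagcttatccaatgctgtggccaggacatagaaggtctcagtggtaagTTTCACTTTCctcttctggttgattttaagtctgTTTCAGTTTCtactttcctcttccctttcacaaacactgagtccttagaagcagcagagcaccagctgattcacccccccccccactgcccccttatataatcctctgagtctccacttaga
Rsad2: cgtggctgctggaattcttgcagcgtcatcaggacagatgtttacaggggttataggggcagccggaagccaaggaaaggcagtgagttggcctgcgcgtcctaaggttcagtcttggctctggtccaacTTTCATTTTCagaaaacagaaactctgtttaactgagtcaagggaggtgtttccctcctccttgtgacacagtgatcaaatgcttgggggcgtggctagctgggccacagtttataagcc
Oasl2: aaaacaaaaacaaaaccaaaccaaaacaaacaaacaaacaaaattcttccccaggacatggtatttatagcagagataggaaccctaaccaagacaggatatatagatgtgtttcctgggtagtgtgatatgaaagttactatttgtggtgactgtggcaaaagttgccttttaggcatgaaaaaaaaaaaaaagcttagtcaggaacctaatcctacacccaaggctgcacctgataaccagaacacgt

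In B2m the match began 139 bases before the start, in Gbp2 59, in Gbp7 53 and in Rsad2 120. Ifit3 held 2 matches, at 156 and 122 bases, and Gbp7 also held 2 gamma-activated sites, at 106 and 87 bases. The windows of H2-D1 and Oasl2 held neither string, which says only that these letters are not there. A window was on hand for 83 of the 112 members. The response element string was present in 25.3% of them and in 3.46% of all 27025 genes with a window, and the gamma-activated string in 16.9% and 8.13%. All 4 interferon-induced GTPase genes with a window held the response element (Gbp2, Gbp3, Gbp5 and Gbp7), as did 4 of 8 Oas genes, but 3 of 23 MHC class I genes (B2m, H2-T22 and H2-T23) and 0 of 3 immunoproteasome genes. By call, 4 of 10 members called lower, 0 of 3 called higher and 5 of 13 not called held it.

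With 1 library per group, no difference has a replicate check and no test between the groups can be made. Paired values are given with the escalating library first. Ratios compare these libraries, not the conditions, and their 95% intervals (exact, Clopper-Pearson) cover counting error only. The assigned totals were 9548358 reads in the escalating library against 9376097 in the nonescalating one. Counts were scaled with TMM factors, which are trimmed means of the gene ratios. A gene with at least 50 counts was called when its log2 ratio reached 1.5-fold and its interval excluded 1. Reads that fell in more than 1 gene made up 8.06% and 18.9% of all listed reads, and their part in the ratios of overlapping genes was not tested. A further 28.6% and 18.1% fell in no gene. Scaling to total reads instead moves every log2 ratio up by 0.36, so ratios under about that size depend on the scaling.

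Of the 31 members with enough counts, 4 were called higher in the escalating library and 11 lower. Over all 12213 genes with enough counts, 9.33% were called higher and 17.1% lower, beside 12.9% and 35.5% of these members. The members' median log2 ratio was -0.23, beside 0.02 over all genes. With total-read scaling 9 members were higher and 6 lower (31.5% and 9.41% of all genes), and the median became 0.13. The share of calls that were higher thus went from 26.7% to 60% among members, and from 35.3% to 77.0% over all genes. Of the 11 members called lower, 6 kept the call with both scalings: B2m, H2-D1, H2-K1, Ifih1, Irf9 and Ifi27. All 4 called higher kept it: Gbp4, Oasl2, Irf3 and H2-Ke6. The log2 ratio changed sign with total-read scaling for 6 members, none of them called under TMM: Stat2, Tapbp, Irf2bpl, Irf2bp2, Ddx58 and H2-DMa.

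**Figure D1:**
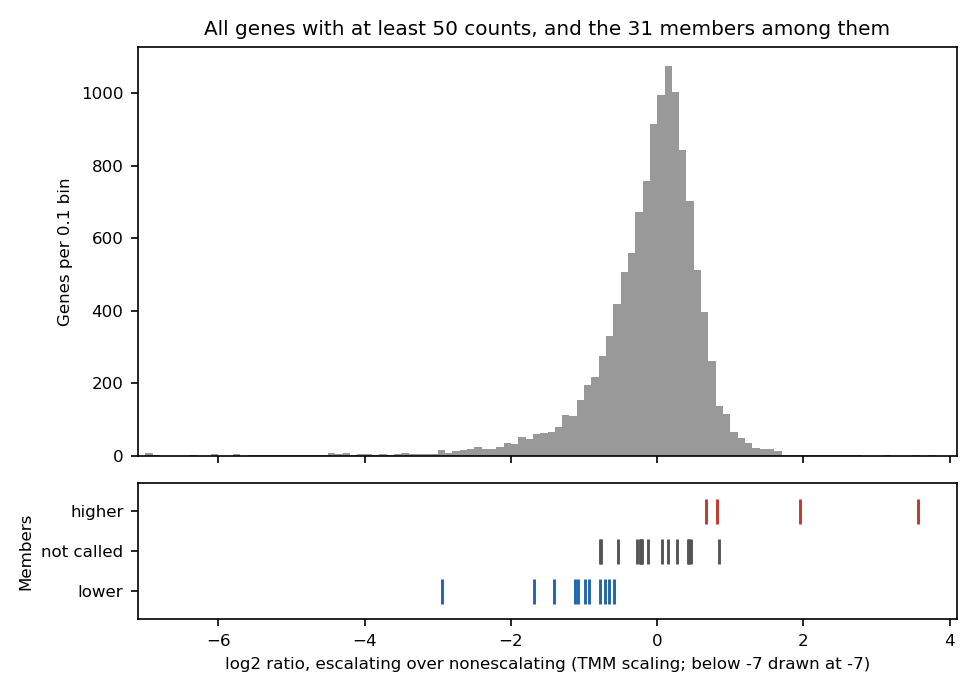
Upper panel: number of genes (y axis) by log2 ratio of escalating over nonescalating (x axis) for all 12213 genes with at least 50 counts. Lower panel: each of the 31 members among them as a tick, by call; B2m lies farthest to the left at -2.95 and Gbp4 farthest to the right at 3.56.

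Markers of other cells differed widely between the libraries and are given here as values. All 20 microglia markers were called lower, and their summed level was 43.8 CPM (counts per megaread of the scaled library) in the escalating library against 1904 in the nonescalating one. All 20 were also lower with total-read scaling, and none was at 0 over both libraries. Csf1r had 86 and 2933 counts and Ctss 53 and 2192. Endothelial markers summed to 151 and 267 CPM, with 11 of 15 lower and 1 higher. Astrocyte markers summed to 2669 and 16624 CPM, most of it from Slc1a2, without which the sums were 1248 and 3368. Of the 15, 15 were lower (13 with total-read scaling). Mature oligodendrocyte markers summed to 1741 and 4298 CPM, with 8 of 12 lower (5 with total-read scaling). Neuron markers summed to 8224 and 6869 CPM, with 2 of 12 higher and 0 lower. Of 12 lymphocyte and natural killer markers, 7 had no read, among them Cd3e, Cd3d, Cd3g and Ncr1, and 1567 and 861 of the list's 1570 and 863 reads were from Cd4. Border macrophage and monocyte markers summed to 17.4 and 14.0 CPM, mostly from Cd163, with Ccr2 at 0 and 1 count and Ly6c2 at 0 in both. The part of these differences in the members' ratios was not tested. In tissue RNA, fewer cells of a type and less RNA per cell cannot be told apart.

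MHC class I was lower as a sum, in large part through B2m. Its 32 light and heavy chain genes together had 802 reads in the escalating library against 1980 in the nonescalating one, a summed level 3.23-fold lower in the former (interval 2.97 to 3.51). The 31 heavy chain genes without B2m had 589 and 722 reads and were 1.60-fold lower (1.44 to 1.79; a ratio of 0.801 with total-read scaling). B2m, the light chain that every class I molecule needs, lies on chromosome 2 from 122147686 to 122153083 (coordinates here and below are those of GENCODE M21 on GRCm38, the mm10 build). B2m had 213 and 1258 counts, or 19.7 and 152 CPM, and was 7.72-fold lower (6.68 to 8.97). H2-D1, a classical heavy chain that presents peptide to cytotoxic T cells (chromosome 17, 35262730 to 35267499), had 76 reads against 188 and was 3.24-fold lower (2.47 to 4.28). H2-K1, another classical heavy chain (chromosome 17, 33996017 to 34000347), had 142 reads against 237 and was 2.18-fold lower (1.77 to 2.71). H2-T23, the nonclassical chain Qa-1 that natural killer receptors read, had 43 reads against 54 and was 1.64-fold lower (1.08 to 2.51), but was not called with total-read scaling. H2-T24, another nonclassical chain, had 276 and 202 counts, and its log2 ratio was 0.06 (-0.20 to 0.33).

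The light chain differed by more than H2-K1 and H2-D1, which can be read without any scaling from counts within a library. There were 1.5 reads of B2m for each read of H2-K1 in the escalating library and 5.31 in the nonescalating library, which is 3.54-fold fewer (2.72 to 4.59). Against H2-D1 there were 2.80 and 6.69 reads of B2m, 2.39-fold fewer (1.74 to 3.26). H2-D1 over H2-K1 was 0.535 and 0.793, 1.48-fold lower with an interval that nearly reaches 1 (1.04 to 2.11). The classical loci (H2-D, H2-K and H2-L symbols) summed to 20.1 and 51.6 CPM. The H2-T genes summed to 29.7 and 31.2 CPM, a ratio of 0.951 (0.805 to 1.13) that became 1.22 with total-read scaling. Most of the H2-T reads were from H2-T24, so this sum mainly gives that gene, and H2-T23 was called lower.

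The remaining class I symbols were hardly read. Of the 31 heavy chain genes, 16 had no read and 11 had 1 to 49 counts. The 8 H2-Q genes had 20 reads in the escalating library against 3 in the nonescalating one (5.10-fold higher, 1.51 to 26.8), of which H2-Q4 had 13 and 2. The 12 H2-M genes had 30 and 33 reads, mostly from H2-M10.2 (18 and 14) and H2-M3 (8 and 18), a chain known for presenting formylated peptides. Heavy chain genes are near copies of each other. Among all 50-base stretches of its transcripts, H2-K1 shared 9.63% with another gene, H2-D1 12.8%, H2-T23 14.5% and H2-Q4 36.4%, and 9.53% and 7.78% of listed reads aligned to more than 1 place and were not counted. The class also varies in sequence between mouse strains, so values of single heavy chains are uncertain. B2m shared 0% of its stretches.

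**Figure D2:**
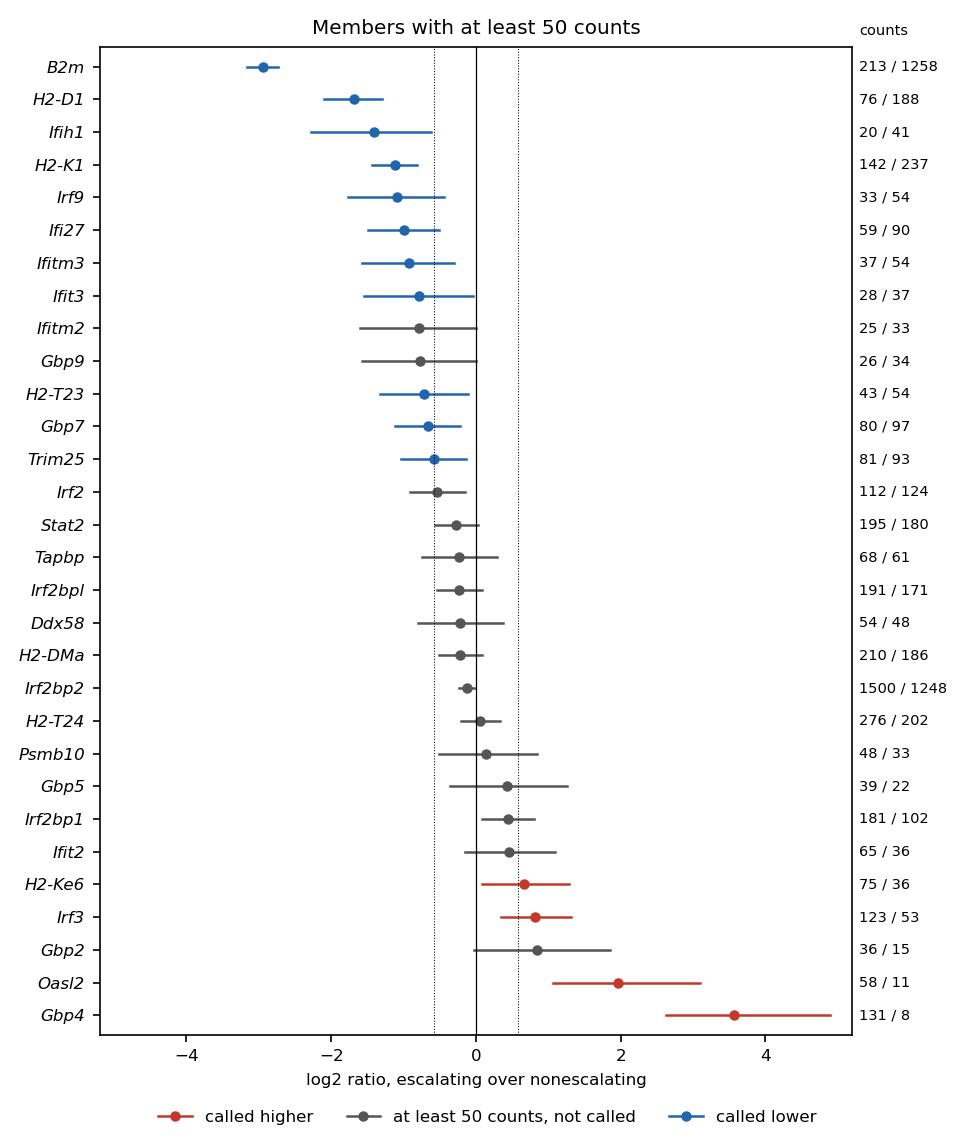
Log2 ratio of escalating over nonescalating (x axis, TMM scaling) for the members described here with at least 50 counts, with 95% counting intervals as bars, dotted lines at 1.5-fold, and the escalating and nonescalating counts at the right. The interval of B2m lies apart from those of the other members drawn, and the intervals of Gbp4 and Oasl2 lie above those of the members called lower.

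The genes of peptide supply had few reads, and no subunit of the immunoproteasome was called. The immunoproteasome subunits Psmb8, Psmb9 and Psmb10 replace the catalytic subunits Psmb5, Psmb6 and Psmb7 when interferon is present, and change which peptides the proteasome cuts. Psmb10 (chromosome 8, 105935735 to 105938444) had 48 reads against 33, a log2 ratio of 0.15 (-0.52 to 0.84). Psmb9 had 22 and 16 counts and Psmb8 12 and 24, both under the 50 needed for a call. As a group the 3 subunits summed to 7.58 and 8.82 CPM, 1.16-fold lower with an interval on both sides of 1 (0.838 to 1.62), and the direction turned with total-read scaling (ratio 1.10).

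Each subunit was also set against the one that it replaces, which needs no scaling. Psmb8 was at 5.19% of the count of Psmb5 in the escalating library against 17.8% in the nonescalating one, 3.41-fold lower (1.58 to 7.74). Psmb9 was at 6.29% and 6.75% of Psmb6, and Psmb10 at 5.64% and 6.07% of Psmb7. As ratios of escalating over nonescalating, their intervals hold 1 (0.456 to 1.94 and 0.576 to 1.52). Both overlap that of Psmb8, which is 0.129 to 0.633 as such a ratio, and the differences between the 3 ratios were not tested. All 6 constitutive counterparts and PA28 regulator genes went uncalled, with a median log2 ratio of 0.16. With total-read scaling 2 of the 6 were called higher, and the median was 0.52. Among the 6, Psmb5 had 231 and 135 counts, Psmb6 350 and 237 and Psmb7 851 and 544. The interferon-inducible regulators Psme1 and Psme2 had 380 and 330 and 97 and 77.

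The genes that carry peptide to class I had few reads too. Tapbp, which encodes tapasin (chromosome 17, 33915899 to 33929292), had 68 reads against 61, a log2 ratio of -0.23 (-0.75 to 0.29). It shares exons with Zbtb22 on the same strand. The transporter subunits Tap1 and Tap2 had 9 and 17 and 13 and 7 counts. Exons of Tap1 overlap those of Psmb9 on the opposite strand, and exons of Tap2 overlap Gm15821 and Gm20496. Without a stated strand setting, reads in these overlaps cannot be told apart. Of 8 genes of class I assembly or its regulation outside the chosen set with enough counts, 4 were lower and 1 higher (median -0.58). With total-read scaling 3 were lower and 1 higher (median -0.22). Erap1, which trims peptides in the endoplasmic reticulum, was 2.36-fold lower (1.55 to 3.65), Canx, encoding calnexin, 2.25-fold (2.10 to 2.41), Pdia3 1.94-fold (1.75 to 2.14), and the higher gene was Rfxap, a subunit of the MHC promoter complex, at 1.80-fold (1.43 to 2.29). Tapbp stood at 5.04% of the count of Canx in the escalating library against 2.63% in the nonescalating one, 1.92-fold higher (1.33 to 2.77).

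MHC class II was almost absent apart from H2-DMa. H2-DMa, which helps load class II molecules (chromosome 17, 34119541 to 34139101), had 210 reads against 186, a log2 ratio of -0.21 (-0.50 to 0.08). H2-DMa shares exons with Brd2 on the opposite strand, which had 1187 and 1053 counts and the same log2 ratio of -0.21, so without a stated strand setting the reads cannot be told apart. The other 9 class II symbols had 20 and 33 reads in all, with H2-Aa at 4 and 5, H2-Ab1 at 0 and 3, and H2-Eb1 at 2 in each. Of the class II partners, Cd74, the invariant chain, had 22 and 25 counts and the costimulatory gene Cd86 5 and 50 (13.1-fold lower, 5.25 to 42.0). H2-Ke6 had 75 reads against 36 and was 1.59-fold higher (1.06 to 2.44), but 70.5% of its 50-base stretches also occur in the overlapping gene Gm20427.

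Along chromosome 17 the members did not follow one direction. H2-K1, H2-D1 and H2-T23 were called lower while H2-Ke6, next to H2-K1, was higher, and Tapbp, H2-DMa and H2-T24 between or beside them were not called.

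**Figure D3:**
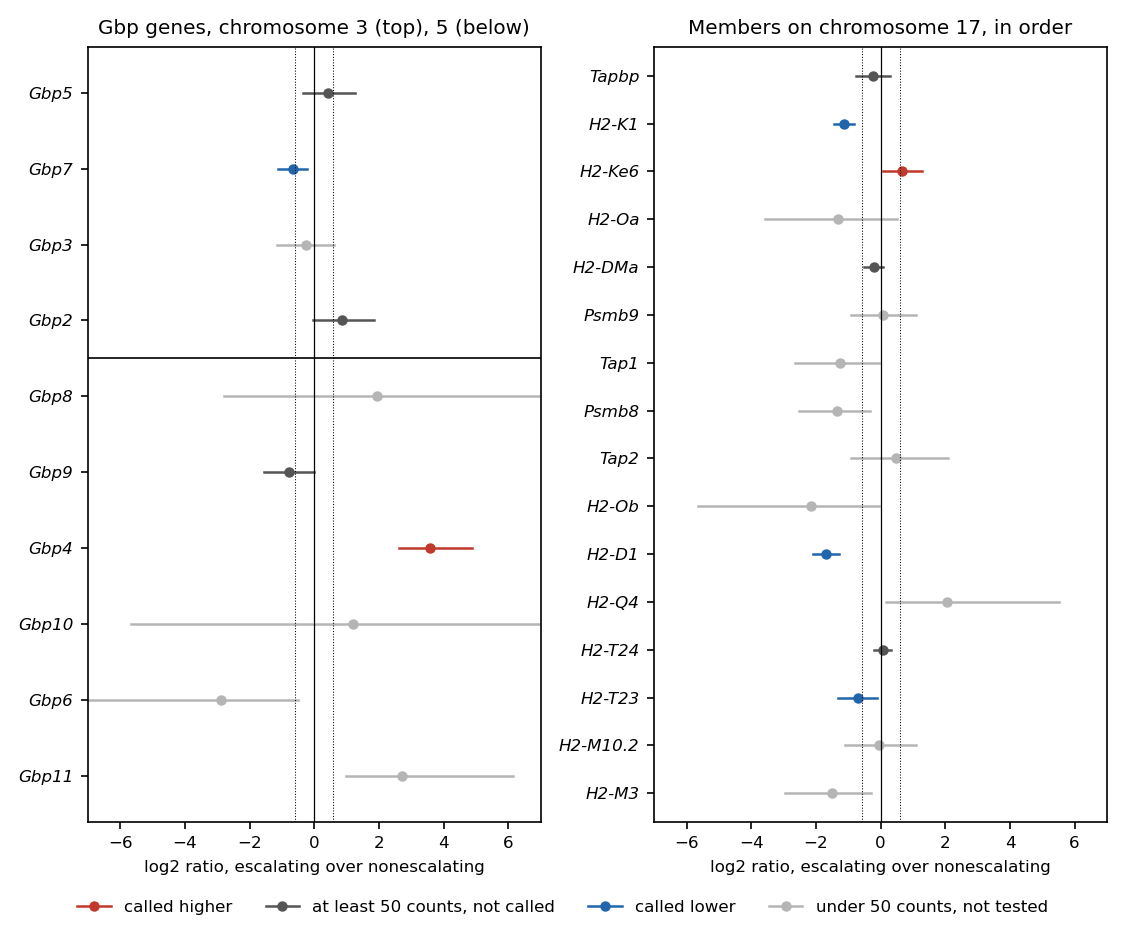
Log2 ratio of escalating over nonescalating (x axis) with 95% counting intervals, for the 10 Gbp genes in order along chromosomes 3 and 5 (left) and for the members on chromosome 17 with at least 10 counts in order along it (right); bars that leave the axis are cut at its edge. Gbp4 and Gbp11 lie to the right of 0 and Gbp6 to the left within one cluster. Gbp6 shares 70.7% of its 50-base stretches with other genes, so its position is uncertain.

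Transcripts of interferon receptor and signalling genes were uneven, with lower receptor chains and no other gene of the list called. Of 9 receptor and transduction genes outside the set with enough counts, 4 were lower and 0 higher (with total-read scaling 4 were lower and 1 higher, and the median was 0.36). All 4 were receptor chains: Ifngr1 with 41 and 194 counts was 6.19-fold lower (4.40 to 8.89), Ifnar2 with 142 and 304 was 2.80-fold (2.29 to 3.44), Ifnar1 with 216 and 330 was 2.0-fold (1.68 to 2.38), and Ifngr2 with 85 and 129 was 1.98-fold (1.5 to 2.64). The kinase Jak1 had 2058 reads against 1501, a log2 ratio of 0.07. Beside the receptors, the microglia markers summed to 43.8 and 1904 CPM, and any part of that difference in the receptor values was not tested.

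Stat2, a transcription factor of the type I response (chromosome 10, 128270559 to 128292849), had 195 reads against 180, a log2 ratio of -0.27 (-0.57 to 0.03), and was not called. Irf9 over Stat2 was 0.169 in the escalating library against 0.3 in the nonescalating one, 1.77-fold lower (1.07 to 2.96).

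The Irf factors went different ways. Irf3, which sensors activate to start interferon transcription (chromosome 7, 44997648 to 45002848), had 123 reads against 53 and was 1.77-fold higher (1.28 to 2.50). Its exons overlap Bcl2l12 on the opposite strand, which had 2 and 9 counts. Irf9, the DNA-binding partner of Stat2 (chromosome 14, 55603571 to 55610030), had 33 reads against 54 and was 2.14-fold lower (1.36 to 3.41). It shares exons with Rnf31 on the same strand, which went the other way with 196 and 109 counts. Irf2, a repressor of interferon genes (chromosome 8, 46739732 to 46847458), had 112 reads against 124, a log2 ratio of -0.53 (-0.92 to -0.15), short of 1.5-fold.

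Irf7, known as the amplifier of the type I response, had 38 reads in the escalating library against 2 in the nonescalating one (14.5-fold higher, 3.75 to 124). With 40 reads in all it fell below the 50 needed for a call, and its exons overlap Phrf1 on the opposite strand, which had 606 and 386 counts. Irf7 stood at 30.9% of the count of Irf3 in the escalating library against 3.77% in the nonescalating one. Irf1 had 18 and 15 counts and Irf4 14 and 13, and their intervals held 1. Irf2bp2 had the most reads of any member over both libraries. Among the Irf2-binding genes, Irf2bp2 had 1500 and 1248 counts (log2 ratio -0.12), Irf2bpl 191 and 171 (-0.23) and Irf2bp1 181 and 102 (0.44). None of them was called, but Irf2bp1 was called higher with total-read scaling. Of the factors left out by the choice, Irf8 had 15 and 120 counts and Irf5 4 and 28, 10.5-fold (6.10 to 19.3) and 9.15-fold lower (3.20 to 35.9).

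Guanylate-binding proteins, interferon-induced GTPases that attack vacuoles of pathogens, differed mainly in Gbp4. The 4 Gbp genes of chromosome 3 had 180 and 157 reads and summed to 16.6 and 19.0 CPM (ratio 0.877, 0.704 to 1.09), which turned to 1.13 with total-read scaling. The 6 Gbp genes of chromosome 5 had 182 and 52 reads and summed to 16.8 and 6.29 CPM, 2.68-fold higher (1.96 to 3.72). Without Gbp4 the other 5 genes of chromosome 5 had 51 reads against 44. They summed to 4.71 and 5.32 CPM (ratio 0.886, 0.580 to 1.36, or 1.14 with total-read scaling). Among the reads that were counted, the difference of that cluster thus rested on Gbp4.

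Of the 5 neighbours of Gbp4 in the cluster, Gbp11 alone also had an interval above 1. Gbp4 (chromosome 5, 105115767 to 105139586) had 131 and 8 counts, or 12.1 and 0.967 CPM, and was 12.5-fold higher (6.17 to 29.6). Gbp9 had 26 reads against 34, a log2 ratio of -0.77 with an interval that just held 0 (-1.57 to 0.01). It shares exons with Gbp4 on the same strand, as does Gbp8 with 2 and 0 counts, so reads in the shared part may have been set aside as ambiguous or split between them. Gbp11 had 21 and 2 counts, Gbp6 1 and 8, and Gbp10 1 and 0. Of its 50-base stretches, Gbp10 shared 84.1% with other genes, Gbp6 70.7%, Gbp11 19.2%, Gbp8 18.1%, Gbp9 8.05% and Gbp4 7.78%. Reads that aligned to more than 1 place were not counted, so the values of Gbp6 and Gbp10 above all are uncertain.

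On chromosome 3, Gbp7 (142530342 to 142550149) had 80 reads against 97 and was 1.59-fold lower (1.17 to 2.16), a call lost with total-read scaling. Gbp2 had 36 reads against 15, a log2 ratio of 0.85 (-0.03 to 1.85). Gbp5 had 39 and 22 (0.42, -0.35 to 1.26) and Gbp3 25 and 23. With total-read scaling Gbp2 and Gbp5 were called higher. Both Gbp7 and Gbp2 hold the response element string printed above. The Mx GTPases had almost no reads, 1 and 9 for Mx2 and 0 and 1 for Mx1.

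The Oas family, which makes the messenger that activates RNase L, was higher as a sum. Its 12 genes had 85 reads in the escalating library against 19 in the nonescalating one, 3.42-fold higher (2.06 to 5.96), and 6 of them had no read. Oasl2, an Oas-like protein (chromosome 5, 114896936 to 114912234), had 58 reads against 11 and was 4.03-fold higher (2.10 to 8.52). Oas2 had 14 reads against 0, which set against a floor of 3 reads in the nonescalating library is at least 3.57-fold higher; the counting interval of the ratio, which covers the error of the 14 reads too, begins at 2.54. The other Oas genes had 6 reads or fewer in each library.

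The Ifit genes, whose proteins bind foreign RNA, split between Ifit2 and Ifit3 although they lie next to each other. Ifit2 (chromosome 19, 34550694 to 34576419) had 65 reads against 36, a log2 ratio of 0.46 (-0.14 to 1.09), and was called higher with total-read scaling. Ifit3 (chromosome 19, 34583531 to 34588731) had 28 reads against 37 and was 1.73-fold lower (1.03 to 2.93), a call lost with total-read scaling. Ifit2 over Ifit3 was 2.32 in the escalating library against 0.973 in the nonescalating one, 2.37-fold higher (1.2 to 4.75). The copy Ifit3b shares 51.2% of the 50-base stretches of Ifit3, so that its count is uncertain. Ifit1 had 8 and 7 counts.

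The membrane proteins of the Ifitm family, which hinder viral entry, were lower as a sum with 93 and 105 reads (1.48-fold, 1.11 to 1.97). Ifitm3 (chromosome 7, 141009586 to 141010770) had 37 reads against 54 and was 1.91-fold lower (1.23 to 2.98). Ifitm2 had 25 reads against 33, a log2 ratio of -0.78 (-1.60 to 0.01), and 48.5% of its 50-base stretches recur in other genes. Ifitm10, a distant relative, had 31 and 15 counts. With total-read scaling the sum was 0.870 of the nonescalating level and neither Ifitm2 nor Ifitm3 was called.

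The Ifi symbols, which share a name rather than a fold, summed to 7.49 and 17.4 CPM, 2.33-fold lower (1.76 to 3.09). Ifi27 (chromosome 12, 103434211 to 103440239) had 59 reads against 90 and was 2.0-fold lower (1.42 to 2.82). Ifi30, a lysosomal thiol reductase of antigen-presenting cells, had 5 reads against 31 and was 8.11-fold lower (3.13 to 26.7), below the 50 needed for a call. The GTPase gene Ifi47 went the other way with 12 and 3 counts, but its interval held 1 (0.825 to 16.9).

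Both RNA sensors of the set detect viral RNA in the cytosol. Ifih1, which encodes Mda5 (chromosome 2, 62595798 to 62646255), had 20 reads against 41 and was 2.68-fold lower (1.54 to 4.83). Ddx58, which encodes Rig-I (chromosome 4, 40203773 to 40239828), had 54 reads against 48, a log2 ratio of -0.22 (-0.81 to 0.37). Of 8 sensing genes outside the set with enough counts, 4 were lower and 0 higher, with a median of -1.15. Tlr7, an endosomal receptor for single-stranded RNA, had 2 reads against 124 and was 81.1-fold lower (22.0 to 677), and Tmem173, which encodes Sting, had 3 and 87 (37.9-fold, 12.6 to 187). Tlr9 was 20.6-fold (7.66 to 77.9) and Tlr3 3.57-fold lower (2.71 to 4.73), while the adaptor Mavs had 40 and 36 counts.

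Among single effectors, Trim25, the ubiquitin ligase that activates Rig-I (chromosome 11, 88999376 to 89020293), had 81 reads against 93 and was 1.5-fold lower (1.10 to 2.05), at the threshold itself and not called with total-read scaling. Rsad2, which encodes viperin, had 29 and 3 counts (7.39-fold higher, 2.29 to 37.9). The ubiquitin-like modifier gene Isg15 had 4 reads in each library and its protease gene Usp18 had 1 and 7. Bst2, which encodes tetherin, had 2 and 4.

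Genes with 10 to 49 counts were given no call. There were 26 such members, and the interval lay above 1 for 5 of them (H2-Q4, Rsad2, Gbp11, Irf7 and Oas2) and below 1 for 7 (Mx2, Ifi30, Ifi203, H2-Ob, H2-M3, Psmb8 and Tap1). Over all 3443 genes in that range, 10.7% had an interval above 1 and 17.3% below.

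**Figure D4:**
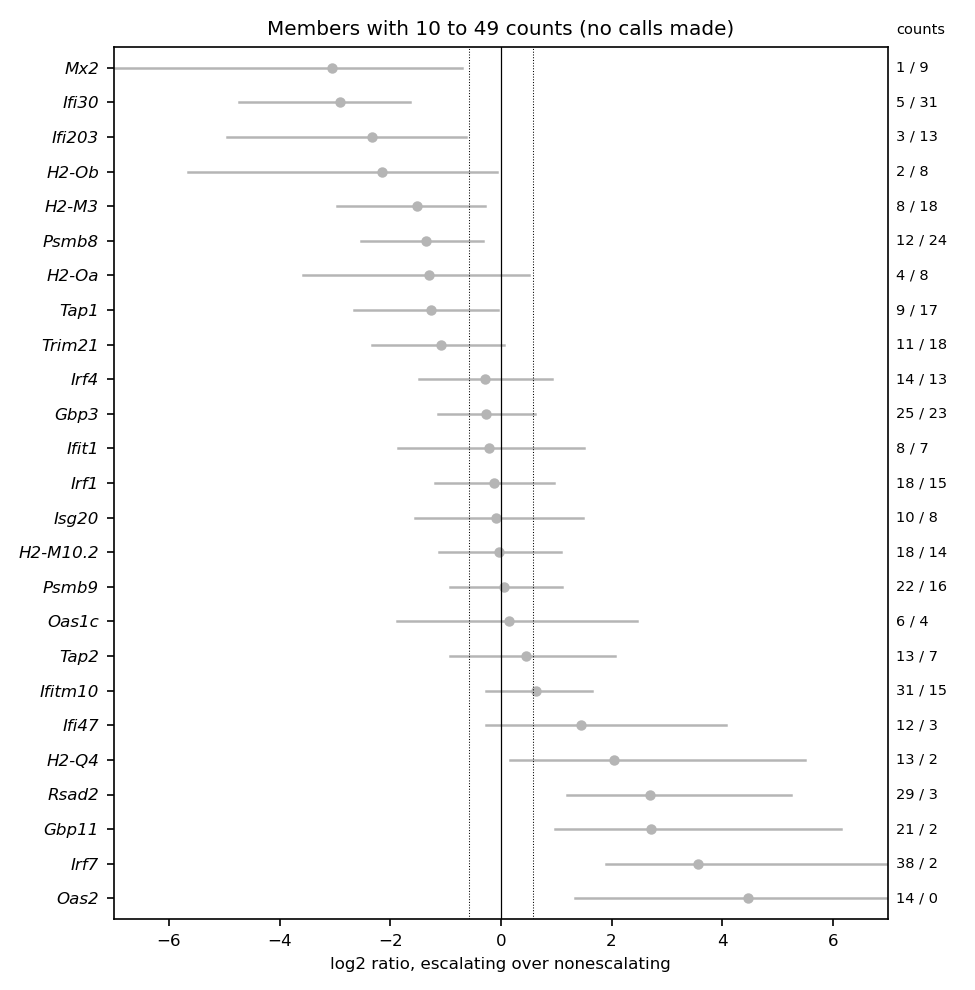
Log2 ratio of escalating over nonescalating (x axis) for the members described here with 10 to 49 counts over both libraries, with 95% counting intervals as bars (bars that leave the axis are cut at its edge) and the escalating and nonescalating counts at the right. Irf7 with 38 and 2 counts and Rsad2 with 29 and 3 lie at the high end, and Ifi30 with 5 and 31 near the low end.

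Interferon-stimulated genes outside the chosen set were mostly lower or uncalled, with 11 of 20 lower and 1 higher (median -0.66, or -0.30 with total-read scaling, where 8 were lower and 4 higher). Trim30a was 8.59-fold lower (3.85 to 22.6), the ADP-ribosyltransferase gene Parp12 6.66-fold (3.45 to 14.1), the galectin gene Lgals9 5.94-fold (3.86 to 9.46) and Parp14 4.30-fold (2.32 to 8.46). The higher gene was the immunity-related GTPase Igtp, with 89 and 37 counts (1.84-fold, 1.24 to 2.78). Igtp shares exons with Irgm2 on the same strand, so reads in the shared part may have been set aside as ambiguous. The relatives of Igtp given here were named after their values were seen. Irgm2 with 71 and 62 counts (log2 ratio -0.19) and Irgm1 with 45 and 21 (0.69, -0.06 to 1.53) were not called. Iigp1 and Tgtp1 had too few counts for a call, but their intervals lay above 1. Iigp1 had 27 and 7 counts (2.95-fold higher, 1.25 to 8.02). Tgtp1 had 11 and 0, and the interval of its ratio begins at 1.92.

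Levels between genes were compared per kilobase of exon, as scaled CPM divided by length (RPKM). In the nonescalating library B2m was the highest of the 31 members with enough counts at 177 RPKM, followed by Irf2bp2 at 29.7, H2-T24 at 11.2, H2-K1 at 9.75 and Ifitm3 at 9.63. In the escalating library Irf2bp2 came first at 27.3 RPKM, then B2m at 22.9 and H2-T24 at 11.7, and H2-D1, at rank 6 in the nonescalating library, was at rank 15 with 2.72. Gbp4 moved from rank 31 at 0.129 RPKM in the nonescalating library to rank 18 at 1.62. The lengths are those of GENCODE and may not be those the authors counted over.

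**Figure D5:**
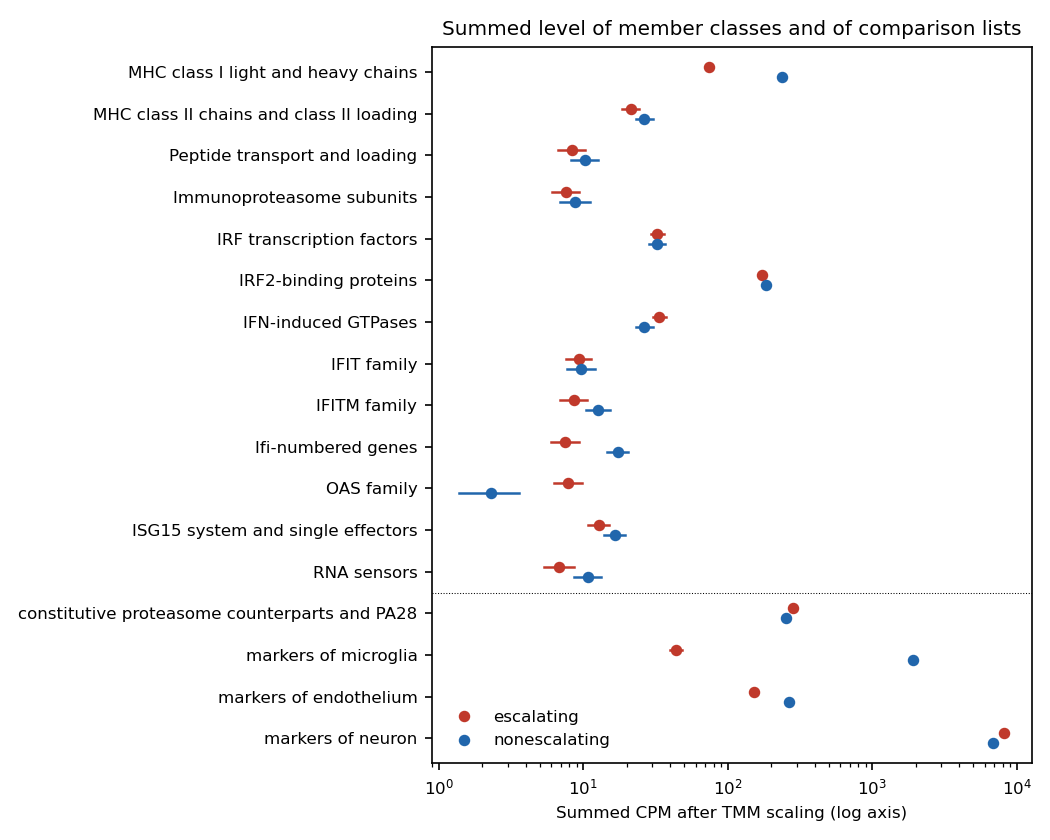
Summed CPM (x axis, log scale, TMM scaling) of most classes of members and, below the dotted line, of 4 comparison lists, in the escalating (red) and nonescalating (blue) library, with 95% Poisson counting intervals as bars. MHC class I sums to 74.1 and 239 CPM and the Oas family to 7.86 and 2.30 CPM, in opposite directions.

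B2m was also set beside the markers of microglia and endothelium, cells known to express it strongly. For every 100 reads of the summed microglia markers there were 44.9 of B2m in the escalating library against 7.98 in the nonescalating one, so B2m differed by less than those markers (5.63-fold, 4.72 to 6.70). For every 100 reads of the summed endothelial markers there were 13 and 56.9, so it differed by more than these (4.38-fold, 3.73 to 5.15). All 112 members together took 0.0507% of assigned reads in the escalating (0.0493 to 0.0522) and 0.0564% in the nonescalating library (0.0549 to 0.0580).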

How the data were processed

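Total RNA of dissected dorsal striatum was sequenced as 1 library per group. Per the submitters' processing notes, alignment by the authors used STAR 2.0.0e and mm10, and counting used HTSeq. Annotation and strand setting are not stated there. The deposited file holds raw counts by gene symbol. Rows naming no gene stayed out of library sizes, and 53.8% and 55.3% of listed reads were assigned.

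Library sizes were scaled with TMM (edgeR 4.0.16, R 4.3.3; factors 1.13 and 0.882). Log2 ratios used a pseudocount of 0.5, and folds are ratios of scaled CPM without one. Where a gene had 0 reads the floor was 3 reads per library, or 0.277 and 0.363 CPM. Reads are not independent molecules, so intervals and floors cover counting error only. No test of counts between groups was possible.

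GENCODE M21 matched 109 of 112 members and gave positions, exon lengths, overlaps and shared 50-base stretches. Calls and intervals were run on simulated counts with Poisson error only. That simulation holds no spread between animals or libraries, so it cannot show how reliable the calls are between the groups. The members and lists were chosen with earlier results of these data known. A few members enter the counts but are not reported here by name. Otherwise, named by rule are all members with at least 50 counts, lower members by class, up to 4 called genes of each pathway list and up to 2 markers of each marker list with most reads. Low members singled out in classes of more than 5, uncalled pathway genes and any further marker were named after their values were seen. Alternatives were DESeq2 1.42.0 size factors, scaling to total reads, TMM without AK140265 and Rn45s, other filters, a larger pseudocount, and stricter thresholds. Python 3.11.15, pandas 2.3.3 and scipy 1.17.1 were used.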

Additional observations from a re-analysis of the deposited data

How the results depend on the processing

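Scaling, filter and threshold set how many members were called. The 4 higher and 11 lower became 9 and 6 with total reads, 9 and 18 with a filter of 10 counts, 9 and 21 with no filter, 2 and 5 at 2-fold, 2 and 4 where the whole interval had to lie past 1.5-fold, and 1 and 7 among members that overlap no other gene. These counts rest on different numbers of members: the filter of 10 counts added 26 and no filter added 53. Of the members that overlap no other gene, 14 had at least 50 counts. Over all genes with 10 to 49 counts, 10.7% had an interval above 1 and 17.3% below. Shares over all genes for no filter and for genes without overlap are not given here, so these counts describe the settings only. The members' median of -0.23 was 0.13 with total reads. Over all genes, 3850 were higher and 1149 lower with total reads, 246 and 1091 at 2-fold, and 230 and 1212 with the whole interval past 1.5-fold. Of pathway genes, 2 were called higher, beside 8 with total reads, 5 with either lower filter, 0 at 2-fold and 0 with the whole interval. Of markers, 4 were called higher, beside 12 with total reads, 0 at 2-fold and 2 with the whole interval. With total reads the medians of the receptor list (0.36) and the projection neuron list (0.17) became positive, and with either lower filter that of border macrophages became -0.15. These changes follow from the altered centre, filter, threshold or set of genes. DESeq2 size factors, TMM without AK140265 and Rn45s and a pseudocount of 5 moved no count of calls by over 1.5 times. Leaving out the Irf2-binding genes and H2-Ke6, an alternative chosen after seeing the data, left 3 higher and 11 lower. Also added after seeing the data, leaving out Gbp4 turned the summed ratio of the chromosome 5 Gbp genes from 2.68 to 0.886, leaving out B2m moved that of MHC class I from 0.310 to 0.624, and leaving out Slc1a2 moved that of astrocyte markers from 0.161 to 0.371. Of 289 member values recomputed, 6 changed sign, all with total reads. No paired analysis was possible because each group has 1 library. Depth left 53 members with 1 to 49 counts, for which differences of 1.5-fold were mostly not detectable.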
